A study of Mus musculus with 8 samples.

Results

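Calcium and calmodulin-dependent protein kinases (CaM kinases) were examined in the right cerebral cortex of 8 C57BL/6 mice by poly(A)-selected RNA sequencing, together with Camk2n1, an inhibitor of CaM kinase II. The set held 10 genes, Camk2a, Camk2b, Camk2d, Camk2g, Camk2n1, Camk4, Camk1d, Camkk1, Camkk2 and Camkv, out of 10588 genes that were tested. The genes were chosen by name from the CaM kinase family after their values in this same comparison were known, so their differences between the groups are a description and carry no test. The 4 bigenic mice had the genotype Camk2a-tTa / deltaNLS-hTDP-43. In them a Camk2a promoter drives the tetracycline transactivator, which switches on a human TDP-43 with a mutated nuclear localization signal when doxycycline is absent. The 4 nontransgenic mice came from the same kind of cross and carried neither transgene. Both groups received doxycycline up to 28 days of age, and tissue was taken after 10 days off doxycycline. The Camk2a promoter is active mainly in excitatory neurons of the forebrain, and mice with the transactivator alone were not among the samples, so effects of the transactivator and of the human protein cannot be told apart.

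CaM kinases turn a rise in calcium into phosphorylation. Calcium binds calmodulin, and the complex opens the catalytic site of each kinase. CaM kinase II is an abundant holoenzyme of the postsynaptic density, assembled from the subunits of Camk2a, Camk2b, Camk2d and Camk2g, and it is known for its part in synaptic plasticity. The other arm is a cascade in which the kinase kinases of Camkk1 and Camkk2 phosphorylate CaM kinase I and CaM kinase IV, and the latter acts in the nucleus on transcription factors such as CREB.

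The labels give the tissue as cortex, but their extraction protocol names hippocampi beside the right cortex, and whether hippocampal RNA entered these samples is not given in the sources used here. Values are given as normalized counts, in which each mouse's reads per gene were divided by a factor for that mouse. The values of a group are listed in 1 fixed order of its mice, so that the first value always belongs to the same animal. Column totals ran from 20.1 M to 22.0 M, and the reads on genes behind them were estimated at 10.6 M to 31.9 M per mouse. Both extremes were bigenic mice, the second with the fewest reads and the fourth with the most. All 10 genes exceeded 10 RPM (reads for each M of the column total) in every mouse. The fewest reads behind any value of the 10 genes were about 444, for Camk2d in the second bigenic mouse, which gives a counting error of 4.75%. The transcript that stands for the transgene lay between 29375 and 41550 in bigenic mice and between 5 and 80 in nontransgenic ones, as the labels have it. A pair of bigenic mice stood apart. The second bigenic mouse lay away from the other 3 on the first 2 principal components, and the first bigenic mouse had the highest striatal markers, with 640 normalized counts of Adora2a against 19 to 110 in the other bigenic mice and 67 to 218 in the nontransgenic mice (a gene named after its values were seen). Differences were therefore also computed without these 2 mice. On the first 2 principal components the first bigenic mouse lay with the third and the fourth. The fourth nontransgenic mouse lay off its group there, at 14.0 and -16.4 against 21.3 to 26.5 and -7.03 to 0.978. It was left out only when each mouse was omitted in turn.

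Camk2n1 encodes a small protein that binds active CaM kinase II and blocks it. The gene lies on mouse chromosome 4 (mm9, 138010229 to 138016038, plus strand) and has 2 exons. Its normalized counts were 23678, 24565, 25960 and 24657 in the bigenic group and 57764, 62179, 72159 and 63278 in the nontransgenic group. The groups did not overlap, and the highest bigenic mouse lay far below the lowest nontransgenic mouse. Means were 24715 ± 940 (SD, n = 4) and 63845 ± 6033 (SD, n = 4). The log2 difference between bigenic and nontransgenic mice, on the log2(normalized count + 1) scale, was -1.37 (SE 0.08), which corresponds to a nontransgenic level 2.58 times the bigenic one. It ranked 75 by absolute size among the 10588 genes. The spread of Camk2n1 among bigenic mice was narrow, with a coefficient of variation of 3.80%, and the mice that stood apart in other respects did not stand apart here.

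**Figure D1:**
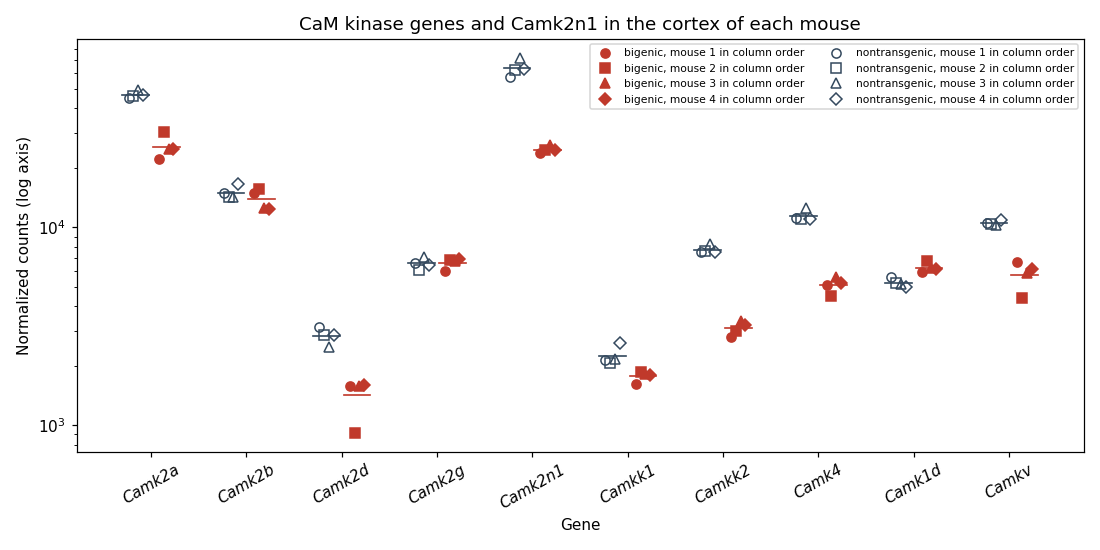
Normalized counts (log axis) of the 10 genes in each mouse, with filled red symbols for bigenic and open blue symbols for nontransgenic mice, a symbol shape for each place in the column order and a horizontal bar at the group mean. The groups are apart for 8 genes and overlap for Camk2b and Camk2g, and the second bigenic mouse (red square) is lowest of all for Camk2d at 918.

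Camk2a and Camk2b encode the alpha and beta subunits, the main CaM kinase II subunits of the forebrain. Camk2a lies on chromosome 18 (mm9, 61085272 to 61147806, plus strand). Camk2a had 22112, 30548, 25011 and 24809 normalized counts in bigenic cortex and 44895, 45967, 49794 and 46914 in nontransgenic cortex. Every bigenic value was below every nontransgenic value, and the second bigenic mouse was the highest of its group. The means were 25620 ± 3541 (SD, n = 4) and 46893 ± 2103 (SD, n = 4), a log2 difference of -0.88 (SE 0.10). The endogenous Camk2a gene and the transgene driver share a promoter, and fewer Camk2a-expressing cells cannot be told apart from less Camk2a RNA per cell in these tissue samples.

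Camk2b lies on chromosome 11 (mm9, 5869647 to 5966365, minus strand). Its normalized counts were 14941, 15618, 12579 and 12471 in bigenic cortex, against 14931, 14198, 14301 and 16651 in nontransgenic cortex. The groups overlapped, since the first and second bigenic mice lay within the nontransgenic range and the others lay below it. The means were 13902 ± 1615 (SD, n = 4) and 15020 ± 1134 (SD, n = 4). The log2 difference was -0.12 (SE 0.10), with a 95% interval from -0.33 to 0.10. Without the first and second bigenic mice it was -0.26. Of the windows of 50 bases in the Camk2b exons, 95.9% occurred once in the genome, the lowest share among the 10 genes.

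Camk2d and Camk2g encode the delta and gamma subunits, which are also made outside the brain. Camk2d lies on chromosome 3 (mm9, 126299220 to 126547972, plus strand). It had 1574, 918, 1585 and 1593 normalized counts in bigenic cortex and 3141, 2877, 2481 and 2874 in nontransgenic cortex. The other 3 bigenic mice were almost level and the second was far lower, and no bigenic mouse reached the lowest nontransgenic value. The means were 1418 ± 333 (SD, n = 4) and 2843 ± 272 (SD, n = 4), and the log2 difference was -1.04 (SE 0.17), the widest error of the set. It ranged from -1.10 to -0.84 when each mouse was left out in turn.

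Camk2g lies on chromosome 14 (mm9, 21554097 to 21613310, minus strand). Its normalized counts were 6048, 6847, 6787 and 6910 in the bigenic group and 6616, 6131, 7102 and 6478 in the nontransgenic group. The groups overlapped, with means of 6648 ± 403 (SD, n = 4) and 6582 ± 402 (SD, n = 4). The log2 difference was 0.01 (SE 0.08), and its 95% interval ran from -0.15 to 0.18. Among the 4 subunit genes, Camk2a and Camk2d were therefore lower in every bigenic mouse, while Camk2b and Camk2g overlapped between the groups.

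Ratios within a mouse compare these genes without the scaling between mice. They were computed per kb of the longest coding transcript and are likewise descriptions. The ratio of Camk2n1 to the summed Camk2a, Camk2b, Camk2d and Camk2g was 0.525, 0.457, 0.564 and 0.538 in bigenic cortex and 0.853, 0.927, 1.01 and 0.891 in nontransgenic cortex. Relative to the subunit genes, the inhibitor gene was lower in every bigenic mouse, with means of 0.521 ± 0.0455 and 0.920 ± 0.0678 (SD, n = 4 each). The ratio of Camk2a to Camk2b was 1.20, 1.58, 1.61 and 1.61 against 2.43, 2.62, 2.82 and 2.28. Camk2a made up 47.9% ± 2.95 (SD, n = 4) of the summed subunit level in bigenic mice and 60.5% ± 1.62 (SD, n = 4) in nontransgenic mice. The summed subunit level itself was 10729 ± 909 against 15594 ± 497 normalized counts per kb (SD, n = 4 each). None of these ratios overlapped between the groups.

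**Figure D2:**
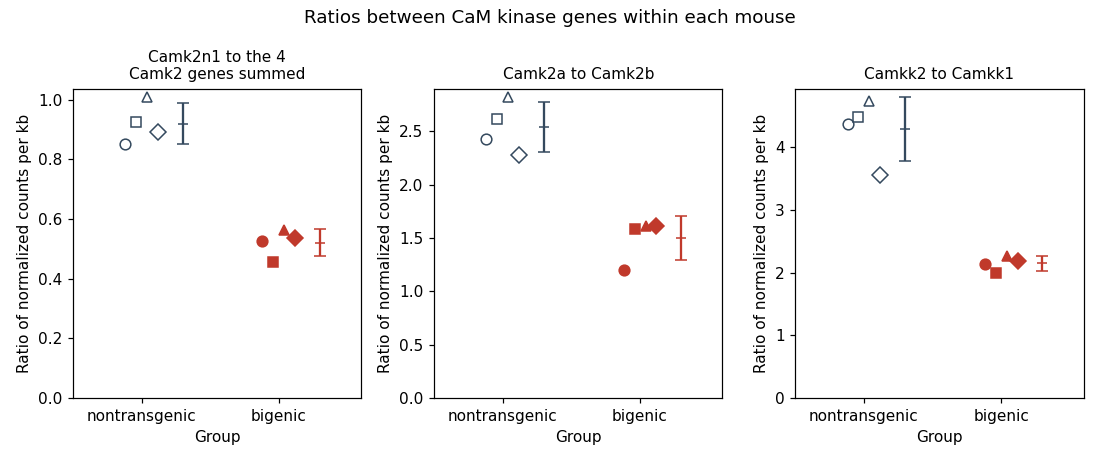
Ratios of normalized counts per kb within each mouse (linear axes from 0), with filled red symbols for bigenic and open blue symbols for nontransgenic mice and bars for the mean ± SD of 4 mice. Every bigenic ratio lies below every nontransgenic ratio in the 3 panels, for example 1.99 to 2.27 against 3.56 to 4.74 for Camkk2 to Camkk1.

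Camk4 encodes CaM kinase IV and lies on chromosome 18 (mm9, 33098695 to 33355421, plus strand). Its normalized counts were 5111, 4508, 5639 and 5245 in bigenic cortex, against 11140, 11085, 12514 and 11044 in nontransgenic cortex. The 2 ranges were far apart, and no bigenic mouse reached the lowest nontransgenic value. The means were 5126 ± 469 (SD, n = 4) and 11446 ± 713 (SD, n = 4), a log2 difference of -1.16 (SE 0.08). Of the Camk4 exon bases, 1.46% lie opposite another gene on the other strand, and whether the counting used the strand is not given in the sources used here.

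Camkk2 encodes the kinase kinase that also phosphorylates AMP-activated kinase, and Camkk1 encodes its relative. Camkk2 lies on chromosome 5 (mm9, 123183213 to 123229391, minus strand) and had 2812, 3007, 3370 and 3204 normalized counts in the bigenic mice against 7549, 7565, 8297 and 7543 in the nontransgenic mice. The groups lay far apart, with means of 3098 ± 242 and 7739 ± 372 (SD, n = 4 each) and a log2 difference of -1.32 (SE 0.08). Camkk1 lies on chromosome 11 (mm9, 72832510 to 72855575, plus strand) and had 1619, 1861, 1825 and 1805 against 2129, 2076, 2154 and 2607. The 2 groups were close but did not overlap, with means of 1778 ± 108 and 2242 ± 246 (SD, n = 4 each) and a log2 difference of -0.33 (SE 0.09). The ratio of Camkk2 to Camkk1, per kb, was 2.15 ± 0.119 in bigenic and 4.29 ± 0.51 in nontransgenic cortex (SD, n = 4 each).

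Camk1d was the only gene of the 10 that was higher in every bigenic mouse. It encodes the delta form of CaM kinase I, a substrate of the kinase kinases. It lies on chromosome 2 (mm9, 5214503 to 5635561, minus strand) and had 5926, 6779, 6257 and 6145 normalized counts in the bigenic mice against 5648, 5231, 5199 and 4998 in the nontransgenic mice. The lowest bigenic mouse exceeded the highest nontransgenic mouse by a small margin. The means were 6277 ± 362 and 5269 ± 273 (SD, n = 4 each). The log2 difference was 0.25 (SE 0.07), from 0.21 to 0.29 when single mice were left out. It passed the threshold for all genes, but not when the second, the third or the fourth nontransgenic mouse was omitted.

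Camkv encodes a kinase-like protein of vesicles and dendritic spines that lacks kinase activity. It lies on chromosome 9 (mm9, 107838251 to 107852022, plus strand) and had 6661, 4401, 5875 and 6168 normalized counts in the bigenic mice against 10592, 10448, 10241 and 10852 in the nontransgenic mice. The second bigenic mouse was again the lowest, and the nontransgenic mice differed little from each other. The means were 5776 ± 973 and 10533 ± 257 (SD, n = 4 each), and the log2 difference was -0.88 (SE 0.12).

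For 5 of the 8 genes whose groups did not overlap, the 250 bases before the start annotated in RefSeq are printed. They show which sequence stands before genes that differed. Build GRCm38.p6 was used, whose coordinates differ from those of mm9 above. Capitals mark matches on either strand to the GC box (GGGCGG), to the short form of the cAMP response element (TGACG), to the CCAAT box and to the TATA box (TATAAA). The lines show Camkk2 (chr5:122779411-122779660, minus strand), Camkv (chr9:107935670-107935919, plus strand), Camk2d (chr3:126596701-126596950, plus strand) and Camkk1 (chr11:73018738-73018987, plus strand), all lower in bigenic mice, and the first start of Camk1d (chr2:5714763-5715012, minus strand), higher in bigenic mice.
Camkk2: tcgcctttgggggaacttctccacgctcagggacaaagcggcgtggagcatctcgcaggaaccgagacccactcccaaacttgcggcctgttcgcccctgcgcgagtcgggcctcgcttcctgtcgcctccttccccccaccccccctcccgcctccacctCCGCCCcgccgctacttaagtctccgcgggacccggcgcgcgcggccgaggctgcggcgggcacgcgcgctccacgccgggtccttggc
Camkv: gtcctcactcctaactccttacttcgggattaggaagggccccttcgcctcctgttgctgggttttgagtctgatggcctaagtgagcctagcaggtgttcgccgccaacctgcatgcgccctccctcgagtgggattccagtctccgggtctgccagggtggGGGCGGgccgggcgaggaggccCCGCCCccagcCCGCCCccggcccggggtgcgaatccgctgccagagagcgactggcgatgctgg
Camk2d: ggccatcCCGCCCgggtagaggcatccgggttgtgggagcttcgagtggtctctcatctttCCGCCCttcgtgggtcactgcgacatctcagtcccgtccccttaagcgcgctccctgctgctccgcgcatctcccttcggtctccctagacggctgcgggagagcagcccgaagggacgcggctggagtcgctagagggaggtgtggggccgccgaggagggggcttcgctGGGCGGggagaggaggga
Camkk1: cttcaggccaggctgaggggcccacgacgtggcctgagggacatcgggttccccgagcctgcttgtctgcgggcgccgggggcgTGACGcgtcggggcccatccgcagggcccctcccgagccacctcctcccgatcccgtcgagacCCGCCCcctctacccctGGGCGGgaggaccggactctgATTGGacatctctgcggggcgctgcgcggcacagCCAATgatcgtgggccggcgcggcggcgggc
Camk1d: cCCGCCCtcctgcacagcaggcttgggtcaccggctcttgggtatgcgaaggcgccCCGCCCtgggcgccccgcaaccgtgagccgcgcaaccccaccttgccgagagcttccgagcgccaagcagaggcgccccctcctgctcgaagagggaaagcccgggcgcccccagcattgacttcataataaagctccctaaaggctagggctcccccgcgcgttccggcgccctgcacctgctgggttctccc

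GC content of the printed promoters was 72.4% for Camkk2, 67.6% for Camkv, 68.4% for Camk2d, 74.4% for Camkk1 and 69.2% for the first start of Camk1d, where the median of 32851 promoters was 52.4%. They held 32, 18, 23, 29 and 22 CpG dinucleotides respectively, against a median of 6. The other listed start of Camk1d, which is not printed, had a GC content of 48.4% and 5 CpG dinucleotides, both below those medians. The Camkk2 promoter contained 1 GC box, that of Camkv 3, that of Camk2d 3, that of Camkk1 2 and that of Camk1d 2, and 32.7% of all promoters contained at least 1. The Camkk1 promoter also contained 1 short cAMP response element, at position -166 from the start, and 2 CCAAT boxes, while the other 4 contained neither. No printed promoter contained a TATA box. Of all promoters, 17.8% contained the short cAMP response element, 33.8% a CCAAT box and 12.4% a TATA box. A GC box was thus present both beside the gene that was higher and beside those that were lower, and a match of letters is a description, not a binding site. The promoter of Camk2b, whose groups overlapped, is not printed. It had a GC content of 78.4% and 44 CpG dinucleotides, both above every printed promoter, and 3 GC boxes. High GC content was therefore not particular to the genes that differed. Promoters of Camk2a and Camk4, both on chromosome 18, are not reported here, and none was found for Camk2g and Camk2n1.

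Counted together, 7 of the 10 genes were lower in bigenic mice in the fit over all genes, 1 was higher and 2 passed neither way. The threshold was a limma adjusted p below 0.05, and with it 35.9% of all genes tested differed, 20.5% being higher and 15.4% lower in bigenic mice. In 7 genes every bigenic mouse was below every nontransgenic mouse and in 1 gene every bigenic mouse was above, against 16.7% and 22.3% of all genes. Because the genes were chosen from these values, nothing is read from these counts. Log2 differences of the 10 genes had a median of -0.88, where the median over all genes was 0.03.

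**Figure D3:**
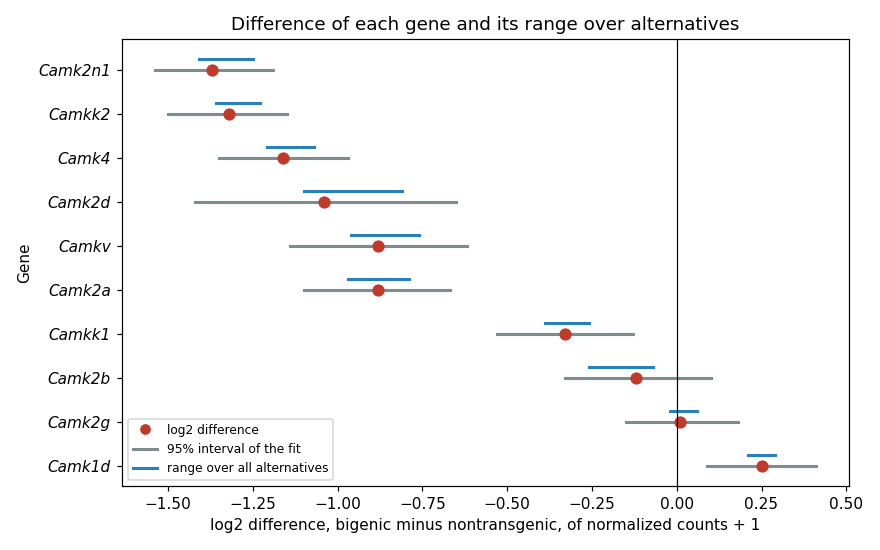
Log2 difference (bigenic minus nontransgenic) of the 10 genes on the log2(normalized count + 1) scale, with grey bars for the 95% interval of the fit and blue bars for the range over alternatives of processing. Points run from -1.37 for Camk2n1 to 0.25 for Camk1d, and only the intervals of Camk2b and Camk2g cross 0.

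Ordered by level per kb, Camk2n1 was the highest of the 10 genes in nontransgenic cortex, with 14367 ± 1358 normalized counts per kb, and Camk2a followed with 9435 ± 423 (SD, n = 4 each). Camk2b (3734 ± 282) and Camkv (3475 ± 84.7) overlapped, and Camkk2 (2784 ± 134) and Camk2g (1777 ± 109) lay below them. Camk4 (928 ± 57.8) stood above Camk1d (757 ± 39.2), Camkk1 (655 ± 71.8) and Camk2d (648 ± 62.0), which overlapped with their neighbours. In bigenic cortex Camk2n1 (5561 ± 212) and Camk2a (5155 ± 713) overlapped, so their order could not be told from these mice. Camk2b (3456 ± 401) came next. Camkv (1906 ± 321) overlapped with Camk2g (1795 ± 109). Camkk2 (1114 ± 87.0), Camk1d (902 ± 52.0), Camkk1 (519 ± 31.6), Camk4 (416 ± 38.0) and Camk2d (323 ± 75.9) followed in that order without overlap between neighbours. Transcript isoforms other than the longest coding one were not separated, and part of this order depends on the length used. With lengths from the union of all exons, Camk2b was at 1646 normalized counts per kb in nontransgenic and 1523 in bigenic cortex, below Camkv (3475 and 1906) in both groups and below Camkk2 (2436) in nontransgenic cortex. Camk2a was then at 3432 in bigenic cortex against 5561 for Camk2n1, and Camk2d was at 177 in nontransgenic and 88.2 in bigenic cortex.

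The genes whose profile over the 8 mice lay nearest to that of Camk2n1 were found by the root mean square difference of centred log2 values. The nearest of all genes tested was Camkk2, at 0.065, followed by Dio2, the deiodinase that activates thyroid hormone, at 0.075, and Ipcef1 at 0.101. The median over all genes was 0.72. Camk4 ranked 6 with 0.131. For Camk2a the nearest were Rgs4, a regulator of G protein signalling (0.076), Coro2a (0.077) and Nat14 (0.079), with a median over all genes of 0.502. These likenesses follow the difference between the groups and the spread between mice, and describe 8 samples only.

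Other genes of the pathway were examined from lists of genes that take part in calmodulin signalling. The count of each list stands against 20.5% higher and 15.4% lower among all genes tested and a median of 0.03, and no list was itself tested against them. In the rest of the CaM kinase group, 15 of 18 listed genes were tested, of which 4 fell and 1 rose in bigenic mice, with a median log2 difference of -0.18. Mylk, the myosin light chain kinase, fell by 0.66 on the log2 scale (limma adjusted p = 0.000931). Cask, a scaffold with a CaM kinase-like domain, fell by 0.37 (adjusted p = 0.00387). Dclk1, doublecortin-like kinase, fell by 0.48 (adjusted p = 0.00465), and Camk1g, another CaM kinase I gene, fell by 0.81 (adjusted p = 0.0156). The other inhibitor gene, Camk2n2, had 1569, 3160, 1613 and 1727 normalized counts in bigenic cortex and 1466, 1480, 1557 and 1842 in nontransgenic cortex, so the groups overlapped and only the second bigenic mouse was high. Its log2 difference was 0.29 (95% interval -0.17 to 0.74, adjusted p = 0.295).

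In the list of calmodulin and proteins that bind or store it, 15 of 16 genes were tested. Of these, 6 fell and 2 rose, with a median of -0.13. Calm2 and Calm3, which encode calmodulin, were looked at after their values were seen. Calm3 rose by 0.62 (adjusted p = 0.0192), and Calm2 had a log2 difference of -0.08 (adjusted p = 0.708), but 71.4% of the Calm2 exon windows occur once in the genome. Calm3 was 57067 in the second bigenic mouse and 32161 to 32804 in the other 3, against 22558 to 25692 in nontransgenic mice. On the log2 scale, Itpka, an inositol trisphosphate kinase (-0.64, adjusted p = 0.000572), Marcks (-0.73, adjusted p = 0.00512) and Nrgn, the calmodulin store of dendritic spines (-0.76, adjusted p = 0.00636), also fell.

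Calcineurin is the calmodulin-dependent phosphatase that opposes these kinases. Its list, which also held genes for proteins other than its subunits, such as Rcan2, Akap5 and Nfatc3, had 10 of 14 genes tested. Of these, 6 fell, Rcan2 among them, and 0 rose (median -0.49). Ppp3ca and Ppp3cb encode catalytic subunits and Ppp3r1 the regulatory subunit. Ppp3cb (-1.45, adjusted p = 9.49e-05), Ppp3r1 (-1.06, adjusted p = 2.46e-05) and Ppp3ca (-0.98, adjusted p = 4.89e-05) all fell on the log2 scale. Akap5, which anchors calcineurin at the synapse, fell by 0.64 (adjusted p = 0.000416). The Ppp3r1 exons share 14.3% of their bases with Wdr92 on the same strand, so its counts are uncertain. The list of phosphatases that act on CaM kinases also held genes that encode no phosphatase, such as Ppp1r1a and Ppp1r9a. Of its 11 genes 10 were tested, of which 6 fell and 0 rose (median -0.37). They included the catalytic subunit genes Ppp1cb (-0.59, adjusted p = 0.00164), Ppp2cb (-0.75, adjusted p = 0.00474) and Ppp2ca (-0.65, adjusted p = 0.00957), and the scaffold gene Ppp1r9a (-0.43, adjusted p = 0.000892). Other genes overlap 41.1% of the Ppp2ca exon bases and 11.5% of those of Ppp2cb.

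**Figure D4:**
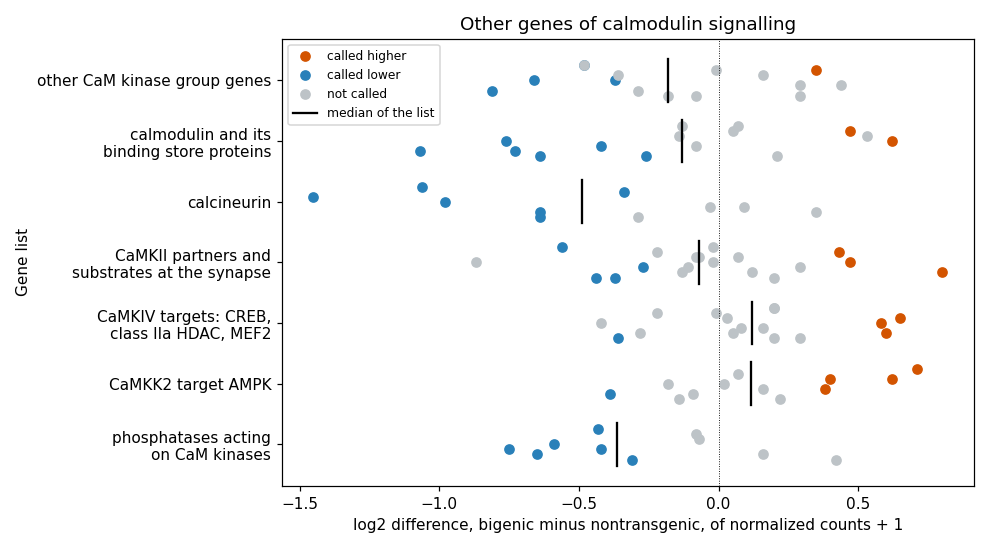
Log2 difference (bigenic minus nontransgenic) of each tested gene in 7 lists of calmodulin signalling, coloured by whether it passed the threshold as higher or lower, with a vertical bar at the list median. In the calcineurin and phosphatase lists, every gene past the threshold lies below 0, with medians of -0.49 and -0.37.

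CaM kinase II partners and substrates at the synapse had 19 of 20 genes tested, of which 4 fell and 3 rose (median -0.07). Cacng3 (-0.56, adjusted p = 0.00195) fell while Cacng2 (0.43, adjusted p = 0.00217), another gene for an AMPA receptor accessory protein, rose. Actn1 fell (-0.44, adjusted p = 0.00324) and Actn2, which encodes an alpha-actinin that binds the kinase, rose (0.80, adjusted p = 0.00721). The CaM kinase IV list held genes of CREB, class IIa deacetylase and MEF2 signalling, not all of them targets of the kinase. Of its 17 genes 16 were tested, of which 3 rose and 1 fell (median 0.12). The CREB coactivator gene Crtc1 rose by 0.65 (adjusted p = 0.00041), Hdac5, a class IIa deacetylase, by 0.58 (adjusted p = 0.00504) and Mef2d by 0.60 (adjusted p = 0.00791), while Mef2c fell by 0.36 (adjusted p = 0.00749). Of the Mef2d exon bases 8.81% lie opposite another gene. The list around AMP-activated kinase, a substrate of Camkk2, also held genes that are not downstream of Camkk2, such as Stk11, Cab39 and Cab39l. It had 12 of 14 genes tested, of which 4 rose and 1 fell (median 0.11). Prkab2 (0.71, adjusted p = 0.000368), Prkaa2 (0.62, adjusted p = 0.0087) and Cab39l (0.38, adjusted p = 0.00539) rose, and Cab39 fell (-0.39, adjusted p = 0.0123).

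Markers of the cell types that cortex tissue can hold were compared with the same fit. The counts of all marker lists stand against 20.5% higher and 15.4% lower among all genes tested. No marker list was itself tested against these shares. Of 9 excitatory neuron markers 1 rose, 1 fell and 7 did not pass the threshold, with a median log2 difference of -0.06 and summed levels of 20385 to 29442 normalized counts in the bigenic mice against 22315 to 24591 in the nontransgenic mice. Slc17a7 (0.15, adjusted p = 0.327) and Tbr1 (-0.24, adjusted p = 0.209), the most abundant of them, did not pass the threshold. Of the general neuron markers, 4 of 7 fell and 1 rose (median -0.32), and Snap25 (-0.38, adjusted p = 0.0231) and Syt1 (-0.44, adjusted p = 0.00581) were among those that fell. Inhibitory neuron markers fell in 2 of 8, including Gad1 (-0.19, adjusted p = 0.0453) but not Gad2 (-0.32, adjusted p = 0.189).

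Of the glial lists, astrocyte markers fell in 4 of 8 (median -0.28), including Slc1a2 (-0.25, adjusted p = 0.0389) and not Aldoc (-0.13, adjusted p = 0.232). Microglia markers fell in 5 of 8 (median -0.41), including Csf1r (-0.33, adjusted p = 0.0108) and Cx3cr1 (-0.56, adjusted p = 0.00156). Of 8 oligodendrocyte markers 1 rose and none fell (median -0.11), and Mbp (-0.20, adjusted p = 0.148) did not pass. Of 5 endothelial markers 1 fell (median -0.18), which was Flt1 (-0.26, adjusted p = 0.0404) and not Slco1a4 (-0.18, adjusted p = 0.34).

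Of 8 choroid plexus markers 4 were tested and all 4 rose, with a median of 2.55, and their sum was 8385 to 19459 normalized counts in bigenic mice against 363 to 1203 in nontransgenic mice. Ttr rose by 4.34 (adjusted p = 0.000109) and Kl by 2.25 (adjusted p = 7.87e-05). Clic6, Kl and F5 reached the filter of 10 RPM in bigenic mice only, so a rise was built into their being tested. Neither the count nor the median of this list is therefore independent of the filter, and Ttr alone passed it in nontransgenic mice as well. Folr1, Kcnj13, Aqp1 and Otx2 were below the filter. No striatal marker of 6 tested passed (median -0.13), but their sum spanned 979 to 5085 in the bigenic mice against 2478 to 4150 in the nontransgenic mice. Drd1a, a dopamine receptor gene, had a log2 difference of -0.41 (adjusted p = 0.31). The hippocampal genes Prox1 (0.07, adjusted p = 0.653) and Fibcd1 (-0.16, adjusted p = 0.591), the 2 of 4 tested, had a median of -0.05. Whether these marker differences play a part in the differences of the 10 genes was not tested. Without the 2 bigenic mice that stood apart, the log2 difference was -1.33 for Camk2n1, -0.91 for Camk2a, -0.83 for Camk2d, -1.07 for Camk4, -0.30 for Camkk1, -1.23 for Camkk2, -0.81 for Camkv and 0.24 for Camk1d, so all 8 kept their direction.

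**Figure D5:**
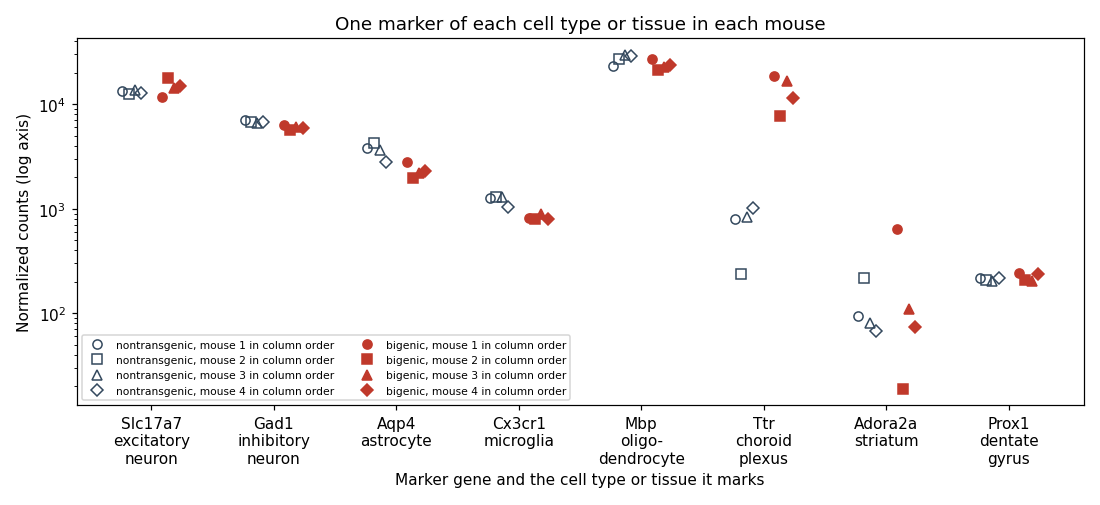
Normalized counts (log axis) of 1 marker of each cell type or tissue in each mouse, with filled red symbols for bigenic and open blue symbols for nontransgenic mice and a symbol shape for each place in the column order. Slc17a7 overlaps between the groups, Ttr is higher in all bigenic mice, and the first bigenic mouse is highest for Adora2a at 640.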

How the data were processed

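Right-cortex RNA (4 bigenic mice, 4 nontransgenic mice) was poly(A)-selected and sequenced in 50-base single-end reads. The authors trimmed adaptors, mapped reads to mm9 with Bowtie 0.12.7, kept uniquely mapped reads, summed counts over exons into genes and scaled each mouse. The deposited signal values are whole numbers after scaling and rounding, not raw counts, and the scaling is not given in the sources used here. The reads behind them were estimated from the step between values. The deposited results table also holds the authors' fold changes, p-values, adjusted p-values and q-values, which were not used; it supplied gene symbols. Mice were known only by group, so replicate numbers could not be matched to columns.

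Of 28662 transcripts, the 10588 reaching 10 RPM of the column total in 1 mouse or more were kept, and log2(value + 1) was compared with limma 3.58.1 (trended eBayes, Benjamini-Hochberg adjustment, threshold 0.05) in R 4.3.3. The scripts were tested on simulated data. All 10 genes are named in every mouse. In each pathway list the 4 genes with the smallest adjusted p and Camk2n2 are named, for Camk2n1 and Camk2a the 3 nearest profiles, and in each marker list the 2 most abundant genes. A few genes that these rules select are not reported here. The genes and lists were chosen with earlier results of these data known. Positions and lengths are from GENCODE vM1, and promoters from RefSeq. Alternatives were pseudocounts of 10 and 0.1, no filter, a filter in every mouse, rescaling to equal totals, quantile normalization, array weights, voom, an adjusted p below 0.01, union exon lengths and leaving out each mouse. Leaving out the 2 bigenic mice that stood apart was added after seeing the data. Nothing in the labels says more than that each sample is a mouse, so p-values measure the spread between these mice.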

Additional observations from a re-analysis of the deposited data

Results flagged for a closer look

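Within each group of 4 mice, the gap between the most extreme value and its nearest neighbour was divided by the range of the group. It exceeded Dixon's 95% critical value for 4 samples, as chance alone gives in about 5% of groups, in 17 of 122 groups examined. Of these values, 7 belonged to the second bigenic mouse, which had the fewest reads, and 4 to the first bigenic mouse.

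In the second bigenic mouse Camk2d was low at 918 normalized counts and Prkaa2 at 2527, while Camk2n2 was high at 3160, Nrgn at 6967, Snap25 at 53348 and Syt1 at 36369. The summed Camk2a, Camk2b, Camk2d and Camk2g level was also highest there, at 12087 normalized counts per kb. In the first bigenic mouse Camk2g was low at 6048 normalized counts and the ratio of Camk2a to Camk2b per kb at 1.2, and Csf1r was high at 1615 and Fibcd1 at 289. In the third bigenic mouse Cx3cr1 was high at 881 and Mylk at 309.

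In the nontransgenic mice Camk4 was high at 12514 normalized counts, Camkk2 at 8297 and Nrgn at 9101, all in the third mouse, and Camkk1 at 2607 in the fourth. The flagged values of Camk2d, Camk4, Camkk1 and Camkk2 each lay on the side away from the other group. They could therefore not make the groups overlap, and they widen the difference. Without the second bigenic mouse the log2 difference of Camk2d was -0.84.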

How the results depend on the processing

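No paired analysis was possible because the columns carry no replicate number of the labels. Every alternative kept the direction of the 7 lower genes and of Camk1d, and the 7 stayed below 0.05 in each refit. Camk1d lost its call without the second, the third or the fourth nontransgenic mouse. At an adjusted p below 0.01, 6 of the 10 genes were called lower and 0 higher. With quantile normalization the Camk2n1 log2 difference was -1.25, and without the 2 bigenic mice that stood apart that of Camk2b was -0.26. Camk2b passed the threshold there and with array weights. Cab39 (-0.39) and Camk1g (-0.81) lost their call at 0.01.

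Over the whole table array weights called 3611 genes higher and 2844 lower, and the 0.01 threshold called 1195 and 862. For genes called higher in the rest of the CaM kinase group, array weights gave 3, rescaling 2, voom 2, no filter 0, quantile normalization 0, the 0.01 threshold 0 and removal of the 2 bigenic mice 2, and leaving out single mice gave 0 to 2. Array weights gave 8 lower genes there, 1 higher in the calcineurin list and 8 higher in the CaM kinase IV list. They also gave 3 lower in the AMP-activated kinase list and 2 higher in the phosphatase list. Quantile normalization gave 1 higher gene in the phosphatase list. At 0.01 the calmodulin list had 1 higher gene, the synaptic list 2 lower and the AMP-activated kinase list 0 lower. Leaving out single mice gave 0 to 1 of the 10 genes called higher and 1 to 2 higher in the calmodulin list. The synaptic list then had 2 to 5 lower genes, and the CaM kinase IV and AMP-activated kinase lists each had 1 to 2 lower. The phosphatase list had 0 to 1 higher. With lengths from the union of exons the differences in ratio were -0.65 for Camk2n1 to the subunits and -1.57 for Camk2a to Camk2b, and that of the summed subunits was -3047 normalized counts per kb. The causes were not tested. The fewest reads behind a value of the 10 genes were those of Camk2d in the second bigenic mouse, with a counting error of 4.75%.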
